A study of Rattus norvegicus with 4 samples.

Results

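The 10 genes described here belong to the unfolded protein response, the set of signals by which a cell answers misfolded protein in the endoplasmic reticulum (ER). They were taken by symbol from a table of read counts: Hspa5, Hsp90b1, Calr, Dnajb9, Sdf2l1, Herpud1, Xbp1, Atf4, Ddit3 and Trib3. All 10 were found among the 24005 rows, and all 10 passed the filter on low counts that left 15282 genes for testing. The source was cartilage messenger RNA of male rats of the outbred Sprague Dawley strain, 8 to 12 weeks old and of 140 to 230 g. The osteoarthritis group had 2 libraries whose rats carried the disease label osteoarthritis and the treatment label XGS, which stands for Xiaogu San, a herbal preparation. The control group had 2 libraries labelled healthy and control. By the title and design text the disease had been produced by monosodium iodoacetate, which blocks glycolysis and injures the joint. No library carries the osteoarthritis label without XGS, so disease and preparation cannot be told apart. The design text speaks of normal mice, whereas all 4 libraries are labelled rat. Whether each library came from its own animal is not said in the labels, so p-values cover only the variation among these 4 samples, part of which may be technical.

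Depth was 24492412 and 25994449 counts in the osteoarthritis libraries, against 28156020 and 28270779 in the control libraries. The 12 chondrocyte markers all had counts in every library, with summed levels of 4252 and 10562 CPM (counts scaled to library size, here with TMM, a correction for library composition) in osteoarthritis, against 24771 and 36818 CPM in control. Markers of other tissues also set libraries apart. Those of tendon and ligament summed to 352 and 7523 CPM in osteoarthritis replicates 1 and 2, against 2472 and 2469 CPM in control. Those of adipocytes summed to 6003 and 101 CPM in osteoarthritis, against 1144 and 297 CPM in control. Neutrophil and precursor markers summed to 99.9 and 574 CPM in osteoarthritis, against 6965 and 10904 CPM in control. Erythroid markers summed to 439 and 1110 CPM in osteoarthritis, against 36668 and 31424 CPM in control, with 7 of 7 below both controls. Osteoblast and osteocyte markers summed to 49.4 and 77.9 CPM in osteoarthritis, against 936 and 4395 CPM in control. Those of skeletal muscle, at 127 and 302 CPM in osteoarthritis, against 2237 and 95.7 CPM in control, set the controls apart from each other. In such bulk tissue, fewer cells of a type and less RNA per cell cannot be told apart.

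Protein that is secreted, such as collagen and proteoglycan in cartilage, is folded in the ER by chaperones. When unfolded protein builds up there, 3 sensors in the ER membrane respond: IRE1 (gene Ern1) splices the messenger RNA of Xbp1, ATF6 (Atf6) is cut to release a transcription factor, and PERK (Eif2ak3) slows translation while favouring that of ATF4. XBP1 and ATF6 raise chaperones and the machinery that removes misfolded protein, while ATF4 raises genes of amino acid supply and, under lasting stress, CHOP (Ddit3). Chondrocytes are known to depend on this response because they secrete so much matrix. Gene counts cannot separate spliced from unspliced Xbp1 or measure the proteins.

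XBP1 and ATF6 are known to act on chaperone promoters through the ER stress response element, and ATF4 on its targets through the C/EBP-ATF element. The members' promoter windows are shown for this reason, from RefSeq on assembly GRCr8, which held a window of 250 bases before to 50 after the annotated start for all 10 members by symbol. The ER stress response element, spelled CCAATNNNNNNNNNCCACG, was found on either strand in the windows of Hspa5, Xbp1, Hsp90b1 and Calr, with 2 copies in Hsp90b1, and in 0.0657% of all 33469 windows. Its second form, ATTGG then any base then CCACG, was found in Herpud1 and in 0.0508% of all windows. The C/EBP-ATF element, TGATGNAA, was found in Trib3 and Herpud1 and in 3.98% of all windows. The core letters TGACGTGG, bound by XBP1 and ATF6, were in 0 of the 10 and in 0.595% of all windows. None of these spellings was in the windows of Dnajb9, Sdf2l1, Atf4 or Ddit3. A match is a description of letters, not evidence of binding. Since ATTGG is the reverse complement of CCAAT, both forms of the ER stress element share their letters, but no matches overlapped in the windows of the 10 genes. The stretches around the matches before the start site are given from 5′ to 3′ on the gene's strand, with the fixed letters of each match in capitals. A match on the opposite strand appears as its reverse complement.
Hspa5 (chr3:38452958-38453006, plus strand): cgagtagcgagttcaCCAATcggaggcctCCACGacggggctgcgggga
Xbp1 (chr14:84604543-84604591, plus strand): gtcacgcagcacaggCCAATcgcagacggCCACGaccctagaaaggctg
Calr (chr19:40213120-40213168, plus strand): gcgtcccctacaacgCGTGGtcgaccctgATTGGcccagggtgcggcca
Hsp90b1 (chr7:23012332-23012484, minus strand): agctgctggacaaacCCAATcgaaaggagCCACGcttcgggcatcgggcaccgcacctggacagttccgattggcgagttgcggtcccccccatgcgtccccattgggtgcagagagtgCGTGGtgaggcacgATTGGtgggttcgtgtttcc
Herpud1 (chr19:10614806-10614906, minus strand): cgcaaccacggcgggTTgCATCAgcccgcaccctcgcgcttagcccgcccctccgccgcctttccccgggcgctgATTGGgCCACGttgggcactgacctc
Trib3 (chr3:161275534-161275569, minus strand): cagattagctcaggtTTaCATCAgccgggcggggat

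For 7 of the 10 genes the 2 groups overlapped. Sdf2l1 lay below both controls in both osteoarthritis libraries, with a fitted fold of 0.235, while the chaperone Hsp90b1 and the cochaperone Dnajb9 lay above both, with fitted folds of 2.16 and 1.58. With Benjamini-Hochberg adjustment over all genes, edgeR's quasi-likelihood F test passed 0 of the 10 in either direction, and 0 of the 15282 tested genes (0% called higher and 0% lower). Unadjusted, 1 of the 10 was lower and 0 higher at a p under 0.05, where 11.2% of all tested genes were lower and 12.2% higher. DESeq2 called 1 of the 10 lower and 0 higher (8.23% and 7.12% of all tested genes), and edgeR's likelihood ratio test did the same (6.40% and 6.31%). The log2 fold change was positive for 7 of the 10 and negative for 3, beside 55.1% and 44.9% of all tested genes. For 2 of the 10, both osteoarthritis libraries lay above both controls, beside 30.0% of all tested genes, and for 1 both lay below, beside 26.5%. Together 3 of the 10 had groups apart, where 56.5% of all tested genes did. The median log2 fold change, osteoarthritis over control, was 0.18 over the 10 genes and 0.15 over all tested genes. The median of all tested genes shifted to 0.27 when libraries were scaled by size alone and to 0.05 by upper quartile factors, and that of the 10 genes to 0.25 and 0.06. In other settings the medians parted: without a filter, which brings in low-count genes, they were 0.19 over the 10 genes and 0.42 over all tested genes, by DESeq2, run on the unfiltered counts, 0.15 and 0.40, and without osteoarthritis replicate 1 0.21 and -0.08. For 2 of the 10, Sdf2l1 and Dnajb9, the fitted difference exceeded the gap between replicates in both groups. The share of all tested genes that did so was not computed, so this count cannot be called high or low.

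**Figure D1:**
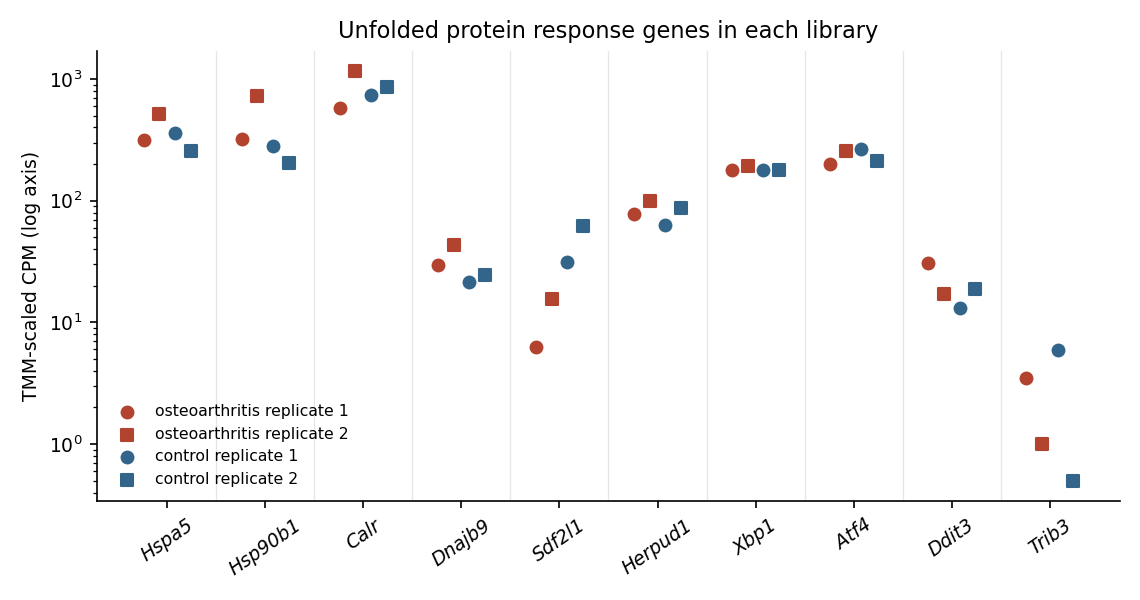
TMM-scaled CPM (log axis) of the 10 unfolded protein response genes, with 1 point per library. Red points are the 2 osteoarthritis libraries and blue points the 2 control libraries; Sdf2l1 lies lower in both osteoarthritis libraries (6.31 and 15.5 CPM) than in both controls (31.4 and 61.4 CPM), while Xbp1 spans 177 to 193 CPM over all 4.

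Of the 3 main ER chaperones, 1 had groups apart. Hspa5 encodes BiP, the Hsp70 of the ER that binds unfolded chains and holds the sensors inactive. It had 314 and 521 CPM in the osteoarthritis libraries, against 361 and 258 CPM in the control libraries. The groups overlapped, with osteoarthritis replicate 2 highest and control replicate 2 lowest. Its log2 fold change was 0.43 ± 0.45 (SE; edgeR adjusted p = 0.618), and the 95% interval of the fold ran from 0.612 to 2.98. It was 0.034 without osteoarthritis replicate 2 and 0.73 without osteoarthritis replicate 1.

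Hsp90b1 encodes GRP94, the Hsp90 of the ER, which folds receptors and secreted proteins. It had 319 and 732 CPM in osteoarthritis, against 283 and 203 CPM in control. Both osteoarthritis libraries were above both controls, replicate 1 by little and replicate 2 by far. The fitted fold was 2.16 (log2 1.11 ± 0.54, edgeR adjusted p = 0.290, n = 2 each), with a 95% interval from 0.836 to 5.58. Without osteoarthritis replicate 1 the log2 fold change was 1.56, and without osteoarthritis replicate 2 it was 0.40. The fit without replicate 1 passed the quasi-likelihood test (edgeR adjusted p = 0.0220), but its spread came from the 2 controls alone, the lone osteoarthritis library being assumed to vary as they did, so the pass adds no replicate evidence. The difference thus lay mainly in osteoarthritis replicate 2. That library had the highest sum of tendon and ligament markers and the lowest of adipocyte markers. It also had the highest CPM of the chondrocyte markers Acan, Col11a1, Sox9 and Comp, but the lowest of Col2a1, Col9a1, Col9a2 and Ucma. In the deposited FPKM, Comp was higher in control replicate 1, at 1692, than in osteoarthritis replicate 2, at 1581. The part of any of these cells in the difference was not tested.

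Calr encodes calreticulin, a chaperone that binds sugar chains and calcium. It had 580 and 1159 CPM in osteoarthritis, against 739 and 861 CPM in control. The osteoarthritis libraries held both the lowest and the highest value, so their spread enclosed the controls. The log2 fold change was 0.12 ± 0.52 (edgeR adjusted p = 0.922), and it was -0.45 without osteoarthritis replicate 2 and 0.50 without osteoarthritis replicate 1.

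Among the helpers of BiP, 1 was higher and 1 lower in both osteoarthritis libraries. Dnajb9 encodes ERdj4, a J-domain partner of BiP that directs misfolded protein to removal. It had 29.6 and 43.0 CPM in osteoarthritis, against 21.3 and 24.5 CPM in control. The groups did not overlap, and the gap between the nearest libraries was smaller than the gap between the osteoarthritis libraries. The fitted fold was 1.58 (log2 0.66 ± 0.36, edgeR adjusted p = 0.325), with a 95% interval from 0.852 to 2.95. The log2 fold change was 0.38 without osteoarthritis replicate 2 and 0.87 without osteoarthritis replicate 1.

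Sdf2l1 encodes an ER protein that works with BiP's J-domain partners to keep chains soluble. It had 6.31 and 15.5 CPM in osteoarthritis, against 31.4 and 61.4 CPM in control. All 4 libraries were apart, with the higher osteoarthritis library below the lower control. These levels rested on 186 and 358 counts in osteoarthritis, against 892 and 1601 in control, so counting error was small beside the gap. The log2 fold change was -2.09 ± 0.60 (edgeR adjusted p = 0.145, n = 2 each), a fold of 0.235 with a 95% interval from 0.0821 to 0.670. DESeq2 called it lower (adjusted p = 0.0176), as did edgeR's likelihood ratio test (adjusted p = 0.0245). Its log2 fold change was -2.87 without osteoarthritis replicate 2, -1.63 without osteoarthritis replicate 1 and -1.52 without control replicate 2. The first of these fits passed the quasi-likelihood test (edgeR adjusted p = 0.00111), but, as for Hsp90b1, its spread came from the controls alone. Across the alternatives run, the log2 fold change of Sdf2l1 lay between -2.87 and -1.46.

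**Figure D2:**
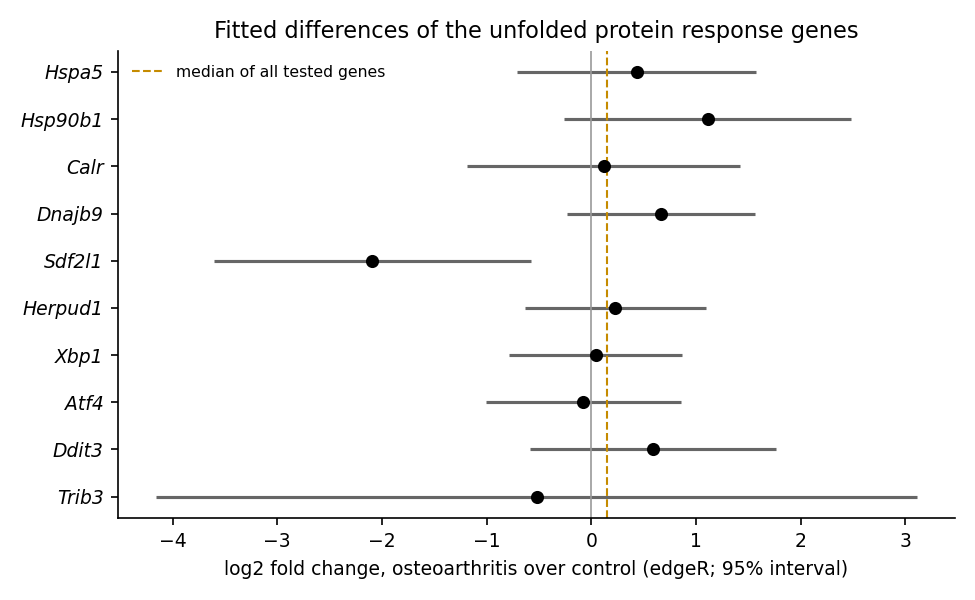
Log2 fold change of the 10 genes, osteoarthritis over control, from edgeR, with 95% intervals as bars and the median of all tested genes as a dashed line. The interval of Sdf2l1 lies below 0, the other 9 span 0, and that of Trib3 is the widest.

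Herpud1 encodes HERP, which assembles the ubiquitin ligase that clears misfolded protein from the ER. It had 77.9 and 98.9 CPM in osteoarthritis, against 62.9 and 87.8 CPM in control. The ranges overlapped, and each group spread by more than the groups differed. The log2 fold change was 0.23 ± 0.34 (edgeR adjusted p = 0.741), and it ran from -0.047 to 0.50 in the fits without 1 library.

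Xbp1 and Atf4, which encode transcription factors of the response, had the 2 log2 fold changes nearest 0. Xbp1 had 177 and 193 CPM in osteoarthritis, against 179 and 180 CPM in control. It was the member with the closest values over the 4 libraries, and its log2 fold change was 0.04 ± 0.33 (edgeR adjusted p = 0.959) and a 95% interval of the fold from 0.581 to 1.82. Atf4, whose product is controlled mostly at translation, had 199 and 256 CPM in osteoarthritis, against 267 and 213 CPM in control. Each group held 1 higher and 1 lower library, and the log2 fold change was -0.08 ± 0.37 (edgeR adjusted p = 0.933). Its sign turned under several settings, such as 0.066 without osteoarthritis replicate 1.

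Ddit3 encodes CHOP, a transcription factor that promotes cell death under lasting ER stress. It had 31.0 and 17.0 CPM in osteoarthritis, against 13.2 and 18.7 CPM in control. Osteoarthritis replicate 1 stood alone at the top, and replicate 2 lay between the controls. The log2 fold change was 0.59 ± 0.47 (edgeR adjusted p = 0.499), and it was 0.05 without osteoarthritis replicate 1 and 0.97 without replicate 2. The RefSeq table places Ddit3 over part of 2 other genes, 1 of them Mars1, a tRNA ligase gene, and strandedness is not given in the sources used here, so its count is uncertain. Dnajb9 and Herpud1 overlap 1 annotated gene each in that table.

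Trib3 encodes a pseudokinase that is induced by ATF4 and CHOP and restrains both. It was the least abundant member, with 3.46 and 0.994 CPM in osteoarthritis, against 5.91 and 0.499 CPM in control. The counts were 102 and 23 in osteoarthritis, against 168 and 13 in control, and the exact Poisson 95% interval of the lowest, for counting error only, was 6.92 to 22.2 counts. The controls alone differed 11.9-fold, so no difference between groups was detectable (log2 -0.52 ± 1.44, edgeR adjusted p = 0.872). Without control replicate 1 the log2 fold change was 2.10.

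The replicates of a group also differed from each other. Osteoarthritis replicate 2 had higher TMM-scaled CPM than replicate 1 for 8 of the 10 genes, and Ddit3 and Trib3 went the other way. For 6 genes osteoarthritis replicate 2 was the highest of the 4 libraries in CPM. Between the controls, replicate 2 had higher CPM for 6 of the 10. These counts depended on the scaling. In the deposited FPKM, which use no TMM, Atf4 (170 and 162), Xbp1 (117 and 94.0) and Herpud1 (48.4 and 45.4) were higher in osteoarthritis replicate 1 than in replicate 2. Xbp1 and Herpud1 were then highest in osteoarthritis replicate 1, and Xbp1 was higher in control replicate 1 than in control replicate 2. The shares over all tested genes are not given. The whole set summed to 1738 and 3036 CPM in osteoarthritis, against 1964 and 1908 CPM in control.

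Levels per gene length were compared with the deposited FPKM, which divide fragments by gene length and library size. Calr ranked first of the 10 in every library, at 374 and 553 FPKM in osteoarthritis, against 400 and 426 FPKM in control, and Trib3 ranked last in every library. Hspa5 had rank 3 in every library, at 148 and 181 FPKM in osteoarthritis, against 142 and 92.8 FPKM in control. Atf4 and Hsp90b1 changed places around it: Hsp90b1 had ranks 4 and 2 in the osteoarthritis libraries, against 4 and 5 in the control libraries. The FPKM ranges of Hspa5, Atf4 and Hsp90b1 overlapped over the 4 libraries, and that of Xbp1 overlapped those of Hspa5 and Hsp90b1. Within every library, however, Hspa5 and Atf4 lay above Xbp1, which had ranks 5 and 5 in osteoarthritis, against 5 and 4 in control. Herpud1 at 45.4 to 48.4 FPKM in osteoarthritis and 32.7 to 41.8 FPKM in control lay below Xbp1 in every library. Sdf2l1, Dnajb9 and Ddit3 changed order, and Sdf2l1 had ranks 9 and 8 in osteoarthritis, against 7 and 6 in control. In control replicate 2 Sdf2l1, at 53.2 FPKM, lay above Herpud1, at 41.8 FPKM.

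Ratios within a library remove the scaling between libraries, but not the trend of the group difference with gene length given below. The FPKM ratio of Hsp90b1 to Hspa5 was 0.927 and 1.29 in osteoarthritis, against 0.717 and 0.721 in control, so both osteoarthritis libraries were above both controls. The FPKM ratio of Sdf2l1 to Hspa5 was 0.0484 and 0.0716 in osteoarthritis, against 0.209 and 0.574 in control, again without overlap. Their lengths differ, at 1064 bases for Sdf2l1 and 2563 for Hspa5, in bins of length whose median log2 fold changes were -0.65 and 0.15. The FPKM ratio of Calr to Hsp90b1 was 2.74 and 2.38 in osteoarthritis, against 3.92 and 6.36 in control. The groups overlapped in the 5 other ratios computed, those of Calr, Dnajb9 and Herpud1 to Hspa5 and those of Ddit3 and Trib3 to Atf4. The FPKM ratio of Calr to Hspa5 was 2.54 and 3.06 in osteoarthritis, against 2.81 and 4.59 in control, and that of Dnajb9 to Hspa5 was 0.126 and 0.111 in osteoarthritis, against 0.0791 and 0.127 in control. With 2 samples against 2, the smallest p of an exact permutation test of such a ratio is 0.33, and no test was made.

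Gene length moved with the difference between the groups. Among the 20% of tested genes with the shortest lengths implied by the deposited FPKM, 21 to 1452 bases, the median log2 fold change was -0.65, and 51.4% lay below both controls. Among the longest 20%, from 4408 bases, the median was 0.81, and 51.7% lay above both controls. The medians of the 3 bins between, of 20% each, were -0.11, 0.15 and 0.43. Sdf2l1, at 1064 bases, is the shortest of the 10 genes and shorter than all but 10.2% of tested genes. Of 1354 genes within 20% of its length, the median log2 fold change was -0.58, and 11.4% were at or below that of Sdf2l1. Ddit3, Atf4 and Trib3 also belong to the shortest 20%, with 1410 to 1431 bases, while Hspa5 and Hsp90b1 are in the middle bin. Offsets for the trend in length, chosen after seeing the data, reduced it but did not remove it. The bin medians then climbed from -0.017 in the shortest to 0.12 in the longest bin. With these offsets the log2 fold change of Sdf2l1 was -1.46 ± 0.64 (edgeR adjusted p = 0.318), that of Ddit3 0.89 ± 0.43 (adjusted p = 0.356), that of Dnajb9 0.76 ± 0.37 (adjusted p = 0.361), that of Hsp90b1 0.95 ± 0.52 (adjusted p = 0.412) and that of Atf4 0.27 ± 0.37 (adjusted p = 0.768). The source of the trend was not tested.

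**Figure D3:**
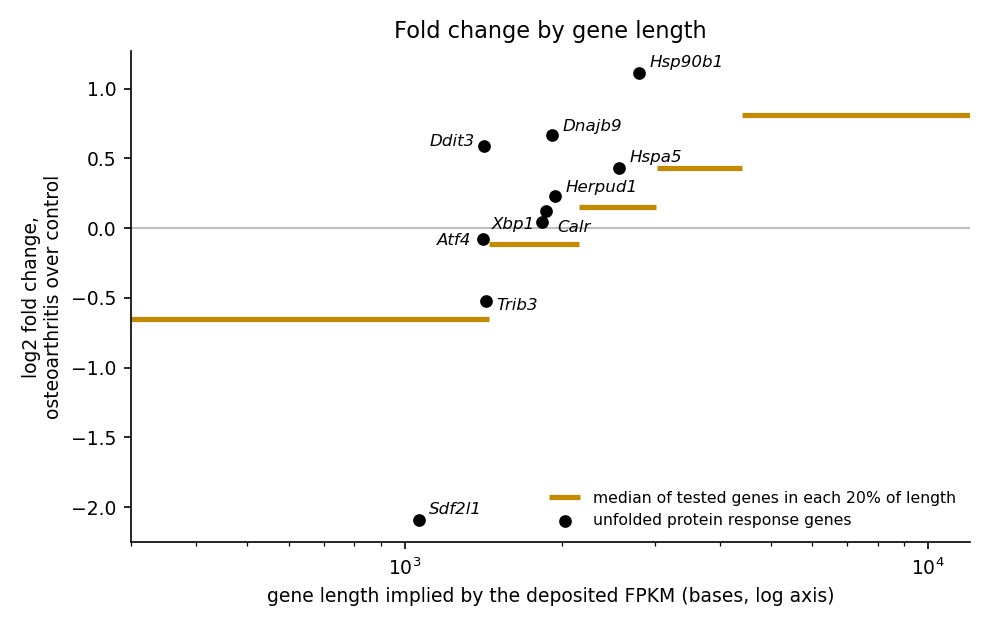
Log2 fold change, osteoarthritis over control, against gene length in bases (log axis) for the 10 genes (points), with the median of each 20% of the tested genes by length as a bar, clipped at the ends of the axis. Bars climb from -0.65 in the shortest to 0.81 in the longest bin, and Sdf2l1 lies below the bar of its bin while Ddit3 lies above it.

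Other genes of the same pathways were followed in lists. The counts of separated genes in each list stand beside 30.0% above and 26.5% below both controls over all tested genes. Of 12 sensors and transducers, 0 passed the quasi-likelihood test, 4 lay above both controls and 2 below both, with a median log2 fold change of 0.48 (0.15 over all tested genes), which was 0.06 with the length offsets and 0.03 without osteoarthritis replicate 2. Atf6, the sensor that becomes a transcription factor, had 84.6 and 115 CPM in osteoarthritis, against 48.1 and 59.3 CPM in control (log2 0.89 ± 0.33, edgeR adjusted p = 0.199). Both osteoarthritis libraries were above both controls. At 5933 bases Atf6 belongs to the longest 20% of tested genes, whose median was 0.81 and of which 51.7% lay above both controls. Ern1, which encodes IRE1, had 24.5 and 40.1 CPM in osteoarthritis, against 23.0 and 25.5 CPM in control, and Eif2ak3, which encodes PERK, had 25.9 and 56.2 CPM, against 37.7 and 32.3 CPM in control. Both overlapped. Traf2, an adaptor that IRE1 recruits, lay below both controls at 20.3 and 21.1 CPM in osteoarthritis, against 33.9 and 38.8 CPM in control (log2 -0.81 ± 0.32, edgeR adjusted p = 0.210). Creb3l2, a relative of ATF6 needed for cartilage matrix secretion in mice, had 14.7 and 92.4 CPM in osteoarthritis, against 12.5 and 16.9 CPM in control, so that replicate 2 alone stood high.

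Of 18 further ER chaperones and folding enzymes, 0 passed, 5 lay above both controls and 2 below both, and the median log2 fold change was 0.38. Their summed level was 3149 and 7292 CPM in osteoarthritis, against 3077 and 3632 CPM in control, and the median was -0.18 without osteoarthritis replicate 2 and 0.82 without osteoarthritis replicate 1. Dnajc3, which encodes a partner of BiP that restrains PERK, had 43.5 and 63.9 CPM in osteoarthritis, against 32.3 and 21.7 CPM in control (log2 0.99 ± 0.38, edgeR adjusted p = 0.208). Dnajc10, a disulfide reductase with a J-domain, had 77.8 and 147 CPM in osteoarthritis, against 56.7 and 56.2 CPM in control. Ero1a, the oxidase that drives disulfide formation, had 14.3 and 53.7 CPM in osteoarthritis, against 11.5 and 11.6 CPM in control. All 3 were above both controls in both osteoarthritis libraries, and higher in replicate 2.

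Of 14 tested genes of ER-associated degradation, 0 passed, 2 lay above both controls and 3 below both, with a median log2 fold change of -0.02 (-0.31 without osteoarthritis replicate 2 and 0.15 without osteoarthritis replicate 1). Partners of the same ubiquitin ligase lay on opposite sides. Syvn1, the ligase HRD1, had 71.2 and 87.8 CPM in osteoarthritis, against 130 and 150 CPM in control (log2 -0.82 ± 0.32, edgeR adjusted p = 0.215). Sel1l, its membrane partner, had 99.3 and 152 CPM in osteoarthritis, against 80.1 and 69.3 CPM in control (log2 0.75 ± 0.36, adjusted p = 0.283). Erlec1, a lectin that brings sugar-bearing clients to this ligase, had 84.5 and 82.1 CPM in osteoarthritis, against 46.7 and 28.8 CPM in control (log2 1.14 ± 0.36, adjusted p = 0.160). Derl3 had 0 counts in all 4 libraries.

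**Figure D4:**
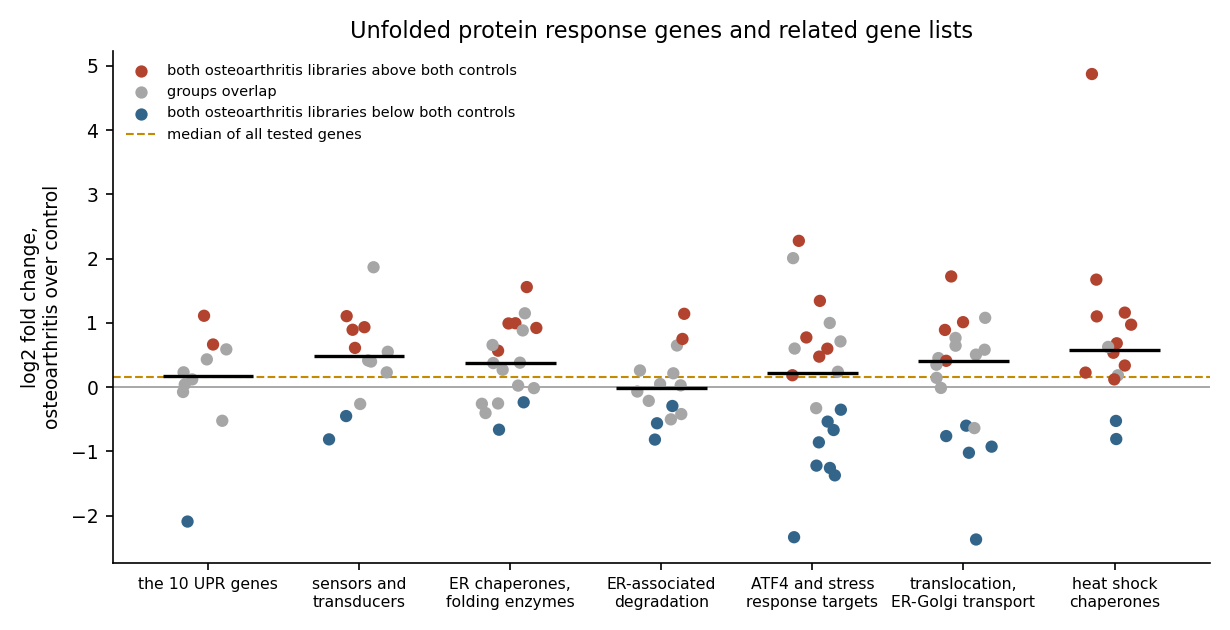
Log2 fold change, osteoarthritis over control, of every tested gene in the 10 unfolded protein response genes and 6 related lists, with black bars for list medians and a dashed line for the median of all tested genes. Red points have both osteoarthritis libraries above both controls (30.0% of all tested genes), blue points both below (26.5%). The ATF4 target list holds 6 red and 8 blue points and the heat shock list 10 red and 2 blue.

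The 20 targets of ATF4 and the integrated stress response were split, with 0 past the quasi-likelihood test, 6 above both controls, 8 below both and a median log2 fold change of 0.21. The median was -0.38 without osteoarthritis replicate 1. Asns, asparagine synthetase, had 32.1 and 21.8 CPM in osteoarthritis, against 59.5 and 80.0 CPM in control (log2 -1.37 ± 0.37, edgeR adjusted p = 0.131; DESeq2 adjusted p = 0.0379). Both osteoarthritis libraries were below both controls. Atf3, a stress-induced transcription factor, had 25.2 and 139 CPM in osteoarthritis, against 15.1 and 18.7 CPM in control (log2 2.28 ± 0.81, edgeR adjusted p = 0.187; DESeq2 adjusted p = 0.0380). Sesn2, sestrin 2, which restrains mTORC1 signalling, had 29.8 and 18.5 CPM in osteoarthritis, against 10.9 and 8.09 CPM in control (log2 1.34 ± 0.46, edgeR adjusted p = 0.178). Both lay above both controls, Atf3 mainly in replicate 2 and Sesn2 more in replicate 1.

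Of 19 genes of ER translocation and ER-Golgi transport, 0 passed, 4 lay above both controls and 5 below both, with a median log2 fold change of 0.41 (-0.22 without osteoarthritis replicate 2). Sec61g, the smallest subunit of the translocation channel, had 30.2 and 49.0 CPM in osteoarthritis, against 171 and 240 CPM in control (log2 -2.37 ± 0.42, edgeR adjusted p = 0.0858; DESeq2 adjusted p = 4.3e-05). Spcs1, of the signal peptidase, had 49.5 and 66.8 CPM in osteoarthritis, against 89.3 and 108 CPM in control (log2 -0.76 ± 0.33, edgeR adjusted p = 0.246). Sec24d, a coat subunit that carries collagen out of the ER, had 67.7 and 270 CPM in osteoarthritis, against 41.8 and 60.6 CPM in control (log2 1.72 ± 0.70, adjusted p = 0.223). Sec61g and Spcs1 are short, at 443 and 705 bases.

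The chaperones of the cytosol and mitochondria, some of which answer heat shock, gave a comparison with chaperones outside the ER. Of 14 tested, 10 lay above both controls and 2 below both, beside 30.0% and 26.5% of all tested genes. Their median log2 fold change was 0.58 (0.29 without osteoarthritis replicate 2 and 0.82 without osteoarthritis replicate 1). Of the 10 unfolded protein response genes, 2 lay above both. The difference between the lists was not tested. By the quasi-likelihood test 0 passed. Hspa1a, the stress-inducible Hsp70, had 11.4 and 99.4 CPM in osteoarthritis, against 2.99 and 0.767 CPM in control (log2 4.87 ± 1.28, edgeR adjusted p = 0.129; DESeq2 adjusted p = 8.5e-05). Its paralog Hspa1b was not matched here, and reads of such near-identical copies can be shared, so its count is uncertain. Bag3, a partner of Hsp70, had 102 and 106 CPM in osteoarthritis, against 43.3 and 49.9 CPM in control (log2 1.16 ± 0.30, adjusted p = 0.126; DESeq2 adjusted p = 0.0373). Hsp90aa1, the inducible cytosolic relative of Hsp90b1, had 77.7 and 38.8 CPM in osteoarthritis, against 14.5 and 22.1 CPM in control (log2 1.67 ± 0.47, edgeR adjusted p = 0.141; DESeq2 adjusted p = 0.0375).

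Markers of cartilage, bone and marrow cells were lower in the same libraries as Sdf2l1. Sdf2l1 was lowest in osteoarthritis replicate 1 and highest in control replicate 2, and the sums of chondrocyte, hypertrophic chondrocyte, osteoblast and osteocyte, B lineage, neutrophil and macrophage markers ranked the 4 libraries alike. Hypertrophic chondrocyte markers summed to 31.1 and 52.3 CPM in osteoarthritis, against 258 and 816 CPM in control, with 4 of 5 below both controls, and 7 of the 8 osteoblast and osteocyte markers lay below both. Macrophage markers summed to 729 and 1325 CPM in osteoarthritis, against 5112 and 7477 CPM in control, with 4 of 6 below both controls. Mrc1 lay above both, at 62.1 and 51.6 CPM in osteoarthritis, against 30.2 and 41.0 CPM in control. Most of the sum was Lyz2, at 382 and 1100 CPM in osteoarthritis, against 4705 and 6879 CPM in control. The other macrophage markers were higher in osteoarthritis replicate 1 than in replicate 2. So were Col10a1, Ihh and Phospho1 of the hypertrophic list and Bglap, Dmp1, Sp7, Phex and Mepe of the bone list. The erythroid sum given above was lower in osteoarthritis too, but highest in control replicate 1. Of the 12 chondrocyte markers 7 lay below both controls, and their sum was carried by different genes in different libraries. In osteoarthritis replicate 2 it came mostly from Comp, a matrix protein at 4468 CPM, Acan and Col11a1, whereas in the controls it came mostly from Col2a1. Of the markers, 3 had positive log2 fold changes, with osteoarthritis replicate 1 lowest and replicate 2 highest of the 4 libraries. Acan, the large cartilage proteoglycan, had 70.9 and 2703 CPM in osteoarthritis, against 493 and 587 CPM in control. Col11a1, a collagen of cartilage fibrils, had 119 and 2360 CPM in osteoarthritis, against 196 and 531 CPM in control. Sox9, the transcription factor of chondrocytes, had 19.5 and 189 CPM in osteoarthritis, against 28.3 and 41.3 CPM in control. Col2a1, the main cartilage collagen, did not rank them so, with 3431 and 385 CPM in osteoarthritis, against 13919 and 26813 CPM in control. Of the 10 tested B lineage and plasma cell markers, 8 lay below both controls, and the list summed to 70.8 and 226 CPM in osteoarthritis, against 556 and 774 CPM in control. Derl3 belongs to that list and was at 0 in every library. Sdc1, a syndecan that other cells also make, gave 39.0 and 177 CPM of the sum in osteoarthritis, against 47.2 and 75.0 CPM in control. Jchain, which joins antibody subunits in plasma cells, had 9.50 and 7.52 CPM in osteoarthritis, against 156 and 214 CPM in control, and was not lowest in osteoarthritis replicate 1. Of 8 tested neutrophil and precursor markers, 8 lay below both controls, while Ltf, the marker not tested, was at 0 in 3 libraries. The part of these cells in the level of Sdf2l1 was not tested.

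**Figure D5:**
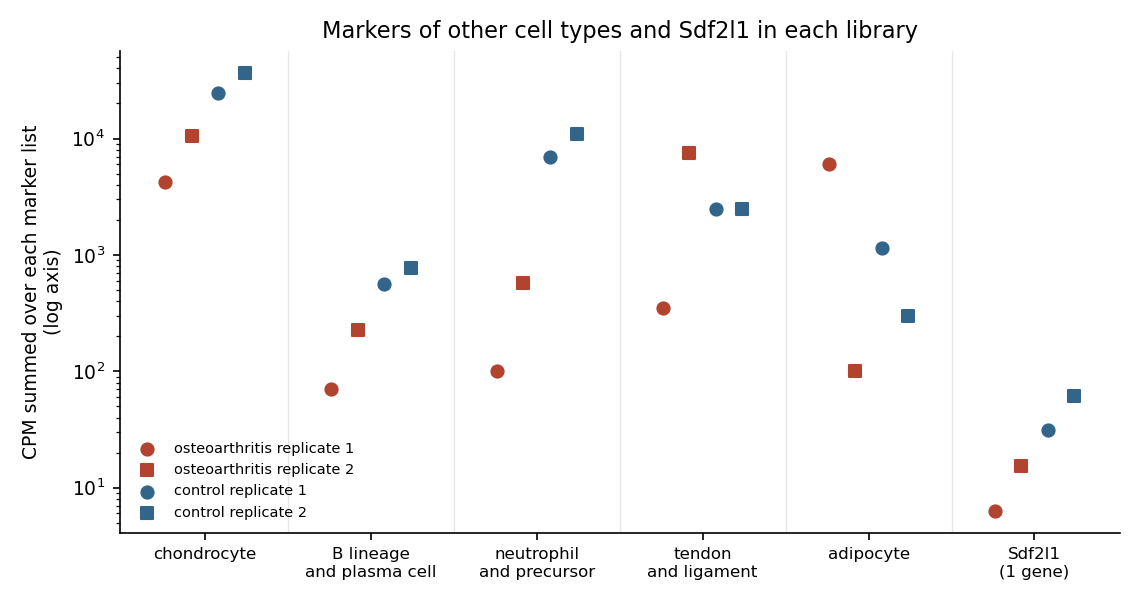
CPM summed over 5 lists of cell type markers, and CPM of Sdf2l1, in each library (log axis), with red points for osteoarthritis and blue points for control. Chondrocyte, B lineage and neutrophil markers and Sdf2l1 are lower in both osteoarthritis libraries, while tendon and adipocyte markers separate the 2 osteoarthritis libraries from each other (352 and 7523 CPM for tendon).

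The genes with the profile most like a member's were found over the 4 libraries, among 7307 genes with a mean of at least 20 CPM. Likeness was the root mean square difference of log2 CPM after removing each gene's mean. For Hspa5 they were Rbbp4 (0.0209), a histone-binding protein, Gtf3c1 (0.0259), of the RNA polymerase III machinery, and Slc23a2 (0.0266), a vitamin C transporter. For Ddit3 they were Amz1 (0.0628), Tbx2 (0.0936), a T-box transcription factor, and Baz1a (0.0988), a chromatin remodeller. With 4 libraries and 7307 genes, close profiles are easily found.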

How the data were processed

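The authors deposited raw read counts per gene for 4 libraries, and FPKM values for the same genes. Per the submitters' processing notes, fastp and TopHat were used and the build was hg38, a human build, whereas the symbols are those of rat genes. No counter, annotation or strandedness is given in the sources used here. The deposited FPKM equal count over gene length and column total, with lengths agreeing between libraries to a relative 1e-08, so they are no second measurement. Per the labels' protocols, RNA was isolated with TRIzol and RNeasy columns.

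The test was edgeR's (version 4.0.16, R 4.3.3; filterByExpr, TMM, quasi-likelihood F test, two-sided, Benjamini-Hochberg over 15282 genes, threshold 0.05). SE is the log2 fold change over the root of F, and 95% intervals use the moderated degrees of freedom. DESeq2 1.42.0, the likelihood ratio test, limma 3.58.1 and fits without each library were alternatives, and the scripts were tested on simulated data. Members and lists were chosen with earlier results of these data known. Beside the members and the 3 sensors, the 3 genes with the smallest p were named per list, and for marker lists the sums, the most abundant gene (given where a result turns on it) and markers at 0. Sdc1, Comp, Acan, Col11a1, Sox9, Col9a1, Col9a2, Ucma, Mkx, Lpl, Lep and Mrc1 were named after their values were seen. So were the hypertrophic and bone markers listed as higher in osteoarthritis replicate 1. Selenos was matched as Vimp, and Hspa1b was not matched. A check of C-terminal ER retention residues was not made here. Of 24005 symbols, 17880 are in the RefSeq table of GRCr8.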

Additional observations from a re-analysis of the deposited data

How the results depend on the processing

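No paired analysis was possible because the labels give no replicate numbers that the groups share. By edgeR's quasi-likelihood test 0 genes passed as higher and 0 as lower, whereas without a filter it called 677 and 751, the likelihood ratio test 965 and 978, DESeq2 1129 and 1264, and fits without 1 library 0 to 1297 and 0 to 1105. Of the 10 genes, 1 was called lower without a filter, by the likelihood ratio test and by DESeq2, in each case Sdf2l1. Leaving out 1 library gave 0 to 1 called higher and 0 to 1 lower. Above both controls lay 2 genes, but 4 with library size alone and 4 on log2(FPKM + 1) and log2(FPKM + 0.1), and 3 to 6 without 1 library; below both lay 1, but 2 with upper quartile factors and 1 to 4 without 1 library. The median of the 10 stayed between 0.047 and 0.29 over the 15 alternatives. Small differences turned sign. Atf4 was at 0.0076 with library size alone, 0.024 on log2(FPKM + 1), 0.024 on log2(FPKM + 0.1), 0.27 with length offsets, and -0.26 to 0.066 without 1 library. Xbp1 was at -0.061 and Calr at -0.0052 with upper quartile factors, and without 1 library they ran from -0.019 to 0.068 and from -0.45 to 0.50. Trib3 was at 0.14 by limma-voom, 0.13 on log2(FPKM + 0.1) and -1.68 to 2.10 without 1 library, and Herpud1 at -0.047 to 0.50 without 1 library. A fit without 1 library takes the spread from the other group alone and assumes that the lone library varies likewise. The causes were not tested. With 2 libraries a group, a missed threshold does not show that levels were alike.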

Other observations

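Serine synthesis genes of the ATF4 list set the osteoarthritis libraries apart from each other, named after their values were seen. Phgdh, the first enzyme of serine synthesis, had 92.3 and 11.02 CPM in osteoarthritis replicates 1 and 2, against 29.0 and 39.2 CPM in control. Psat1, the next enzyme, had 43.0 and 4.97 CPM in osteoarthritis, against 10.9 and 18.4 CPM in control. Both had 1 osteoarthritis library above and 1 below both controls. Mitochondrial one-carbon enzymes lay below both controls, with Mthfd2 at 14.3 and 31.1 CPM in osteoarthritis, against 47.3 and 58.4 CPM in control, and Shmt2 at 30.4 and 57.6 CPM in osteoarthritis, against 80.1 and 79.6 CPM in control (edgeR adjusted p = 0.203 and 0.276). Chac1, a glutathione-degrading enzyme induced by ATF4, had 0.305 and 1.94 CPM in osteoarthritis, against 3.84 and 7.52 CPM in control (log2 -2.34 ± 1.21, edgeR adjusted p = 0.310). Mthfd2, Shmt2 and Chac1 were also named after their values were seen, from a list with 6 genes above both controls and 8 below both.

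Serpinh1, the collagen chaperone HSP47, had 938 and 2685 CPM in osteoarthritis, against 596 and 1037 CPM in control, and Fkbp10, another folding factor of collagen, had 135 and 540 CPM in osteoarthritis, against 132 and 234 CPM in control. They too were named after their values were seen. In both, osteoarthritis replicate 2 was highest and replicate 1 lay between the controls. The summed tendon and ligament markers were highest in the same library, though Mkx was highest in control replicate 1. The chondrocyte markers Acan, Col11a1 and Sox9 were highest there too, as was Comp in CPM but not in FPKM. The summed adipocyte markers, Col2a1, Col9a1, Col9a2 and Ucma were lowest in osteoarthritis replicate 2. The adipocyte markers Lpl and Lep were instead lowest in a control. The part of any of these cells in the levels of Serpinh1 and Fkbp10 was not tested.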
